A study of Homo sapiens with 5 samples.

Results

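The genes described are the 7 CDK inhibitors of the CIP/KIP and INK4 families and the 3 D-type cyclins, whose products set the activity of the cyclin-dependent kinases (CDKs) that carry cells through G1 phase. They were chosen by symbol and not by a filter on their values, but with earlier results of these data known. The members are CDKN1A, CDKN1B, CDKN1C, CDKN2A, CDKN2B, CDKN2C, CDKN2D, CCND1, CCND2 and CCND3. They make 10 of the 30476 genes in the count table, and all 10 had a row and were tested. Expression was measured by RNA-seq of total RNA, in estimated read counts per gene, in TOV21G cells, an ovarian clear cell carcinoma line that carries mutated ARID1A, a subunit gene of the SWI/SNF chromatin remodeler. The groups were parental TOV21G cells without inhibitor (1 library) and EZH2 inhibitor-resistant (EIR) cells, represented by resistant clones 3 and 4, each sequenced untreated and with GSK126, an inhibitor of the histone methyltransferase EZH2 (4 libraries). The EIR clones descended from TOV21G cells selected in GSK126 at 5 uM, then 10, 15 and 20 uM, so that every EIR library shares this drug history with the others and the ARID1A mutation with the parental library. The labels do not give the GSK126 concentration or exposure time of the treated cultures, or the time without drug of the untreated ones. Each EIR line is 1 clone, its 2 libraries are not independent of each other, and parental cells have no replicate. P-values therefore measure the spread between these libraries only, and every difference from parental cells rests on the same single parental library.

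D-type cyclins bind CDK4 and CDK6, and the complexes phosphorylate RB, which releases E2F transcription factors and starts the genes of S phase. INK4 proteins (CDKN2A to CDKN2D) bind CDK4 and CDK6 directly and block them, whereas CIP/KIP proteins (CDKN1A to CDKN1C) bind cyclin-CDK complexes, chiefly those of CDK2. In many cell types the CDKN2A-CDKN2B locus is held silent by PRC2, the complex whose catalytic subunit is EZH2, and CDKN1C is an imprinted gene that PRC2 has also been found to repress.

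Across the 10 genes, CDKN1C was lower and CDKN2A, CDKN2B, CCND1 and CCND3 were higher than in parental cells in each EIR clone, with CDKN2A and CCND1 higher in clone 3 than in clone 4, whereas CCND2 went in opposite directions in the clones. The calls of CCND3 in both clones and of CCND1 in clone 4 were lost in some of the settings tried. CDKN1C was 26.2-fold lower, and CDKN2B 4.81-fold higher, in the mean of the 4 EIR libraries than in parental cells. CCND2 was 7.84-fold above the parental level in clone 3 and 11.7-fold below it in clone 4. No member passed the test between GSK126-treated and untreated EIR cells, with or without the clone number in the fit.

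**Figure D1:**
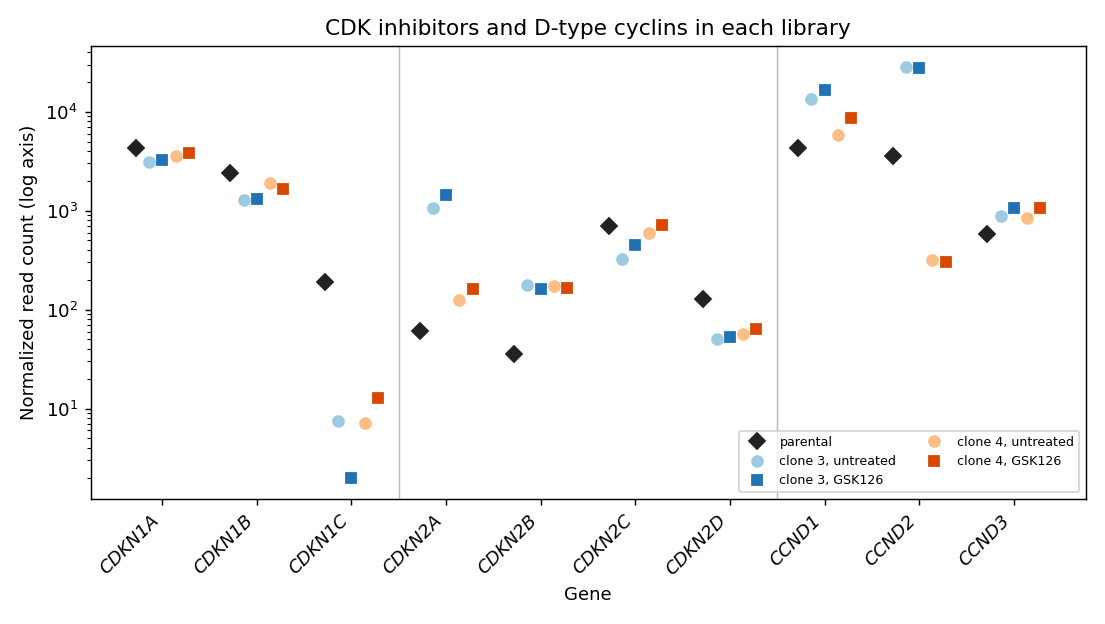
Normalized read count (log axis) of each of the 10 genes in the 5 libraries, with CIP/KIP inhibitors, INK4 inhibitors and D-type cyclins separated by grey lines. For CDKN1C the diamond of parental cells, at 191.4, lies far above all EIR symbols, for CDKN2B, at 35.3, it lies below all of them, and the symbols of clones 3 and 4 lie on opposite sides of the diamond for CCND2.

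The libraries held between 25479238 and 30764963 counts, and normalized counts were obtained with size factors between 0.945 and 1.08. Counts of genes rich in G and C were lower in every EIR library than in the parental one, by 0.373 to 0.474 log2 units per 10 percentage points of GC content across 11377 expressed genes, so results for the 5 members richest in GC (CDKN1A, CDKN1C, CDKN2A, CDKN2D and CCND3) are given also with a correction for GC content. Values of markers, list genes and neighbouring genes are given without this correction. The 6 markers of clear cell carcinoma and epithelium analysed here summed to 22401 to 28177 counts per library. PAX8, a transcription factor of these tumours, had 3031 to 4491 counts, whereas EPCAM, an epithelial adhesion molecule, had 398 in parental cells, 426 and 498 in clone 3, and 0 and 1 in clone 4. Of these markers KRT7 was higher in EIR than in parental cells (log2 1.11, DESeq2 adjusted p = 0.0048), and NAPSA, KRT8 and EPCAM were lower in clone 4 than in clone 3. The part of these differences in the results below was not tested. Of 7 markers of blood, endothelial, liver and smooth muscle cells, 5 had a row, and they summed to 49 to 112 counts per library. In bulk RNA, fewer cells that express a gene and less of its RNA per cell cannot be told apart.

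In the comparison of the 4 EIR libraries with parental cells, 5 of the 10 genes passed an adjusted p under 0.05 (DESeq2), where 25.5% of the 16288 genes tested passed. Of these 5, CDKN2B, CCND1 and CCND3 were higher, as were 12.4% of all genes tested, and CDKN1C and CDKN2D were lower, as were 13.2%. By edgeR 2 of them passed, CDKN1C and CDKN2B, and calls among all genes also fell, from 4157 to 1746. The median log2 fold change was 0.20 over the 10 genes and 0.003 over all genes tested. The 4 EIR libraries lay on the same side of the parental value for 6 of the 8 members whose mean over the libraries reached 100 normalized counts, and for 72.5% of all such genes. Because the clones differed from each other, each clone was also set against the parental library in a fit with the groups parental, clone 3 and clone 4, which was chosen after the data had been seen. In it 9 members passed in clone 3, all but CDKN2D, where 29.2% of genes did, with 5 members higher (14.7% of genes) and 4 lower (14.5%). In clone 4, 6 members passed, where 32.9% of genes did, with 4 higher (14.7%) and 2 lower (18.3%). When either library of clone 3 was left out, fewer members passed in that clone, and so did fewer genes of the whole table. By edgeR CDKN2D passed in both clones (adjusted p = 0.0099 and 0.0262) and CDKN1B in clone 4 (0.0431), while CDKN1A did not pass in clone 3 (0.0545). These comparisons share the parental library.

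**Figure D2:**
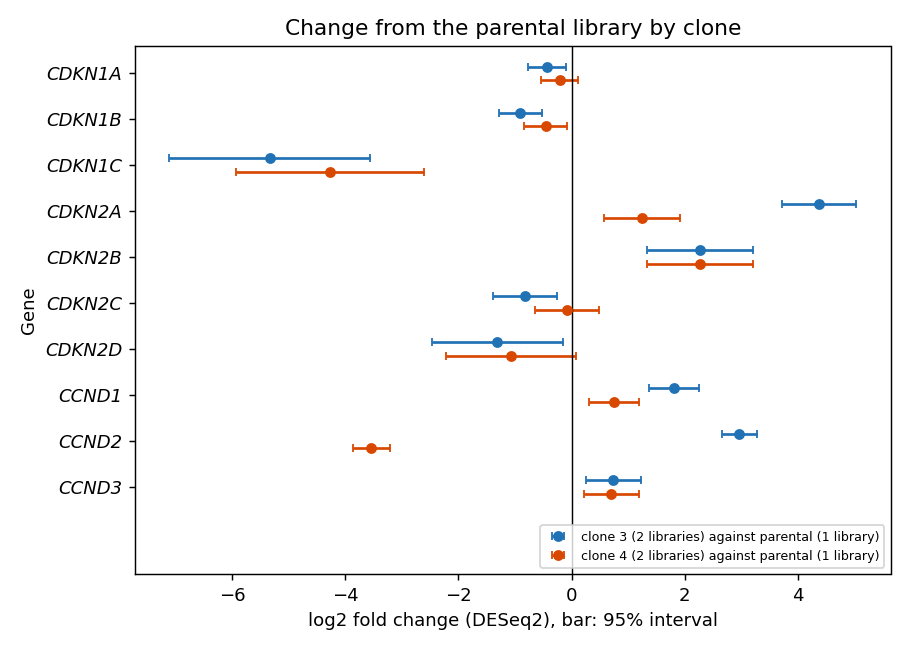
DESeq2 log2 fold change of each gene in clone 3 and in clone 4 (2 libraries each) against the single parental library; points are estimates and bars 95% intervals. The intervals of the clones lie on opposite sides of 0 for CCND2 (2.97 and -3.54) and do not meet for CDKN2A (4.38 and 1.25), while the points for CDKN2B coincide at 2.27.

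Among the CIP/KIP inhibitors, CDKN1C (p57), which restrains the cycle in differentiating tissue, fell. The gene (ENSG00000129757, GRCh37 chr11:2904443-2907005, minus strand) had 191.4 normalized counts in parental cells, 7.41 in untreated and 1.98 in treated clone 3, and 7.12 in untreated and 12.7 in treated clone 4. All 4 EIR libraries, which held between 2 and 12 counts each against 190 in the parental library, were far below the parental value, and the clones overlapped. The log2 fold change of EIR against parental cells was -4.72 (SE 0.85, DESeq2 adjusted p = 8.872e-07), with -5.34 in clone 3 (adjusted p = 8.551e-08) and -4.27 in clone 4 (adjusted p = 5.775e-06). The gene has a GC content of 62.9%, and with the correction for GC content the change was -4.13 (adjusted p = 1.752e-04).

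CDKN1C lies in an imprinted domain of chromosome 11 in which the long non-coding RNA KCNQ1OT1 silences genes in cis. KCNQ1OT1 had 2002 normalized counts in parental cells, 4079 and 4017 in untreated and treated clone 3, and 5674 and 8617 in untreated and treated clone 4. It was higher in EIR than in parental cells by 1.48 on the log2 scale (SE 0.46, DESeq2 adjusted p = 0.0072), and it was the only one of the 7 tested neighbours on the fixed list that also differed between the clones (0.78 for clone 4 against clone 3, adjusted p = 0.0010). SLC22A18, a transporter gene of the same domain, fell from 185.3 to 88.7 ± 19.7 (SD, n = 4), a log2 fold change of -1.07 (DESeq2 adjusted p = 0.0496). It did not pass against parental cells in clone 3 or clone 4 alone. Nor did it pass in untreated EIR cells (DESeq2 adjusted p = 0.113) or treated EIR cells alone. PHLDA2 (log2 fold change 0.24) and NAP1L4 (-0.03), also on the list of neighbours, did not pass in EIR against parental cells. A link between KCNQ1OT1 and the other genes was not tested. The 21 expressed genes whose starts lie within 2 Mb of CDKN1C had a median log2 ratio to parental of -0.33 in clone 3 and -0.21 in clone 4, where all expressed genes had -0.06 and -0.09.

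CDKN1A (p21, ENSG00000124762, GRCh37 chr6:36644237-36655114, plus strand), the inhibitor that p53 induces after DNA damage, was the most abundant inhibitor per length of transcript. It had 4308 normalized counts in parental cells, 3126 and 3273 in untreated and treated clone 3, and 3566 and 3871 in untreated and treated clone 4. All EIR libraries were below the parental one, but the difference of -0.32 on the log2 scale (SE 0.20) did not pass the test (DESeq2 adjusted p = 0.245), and with the correction for GC content (57.3% for this gene) it turned to 0.11 (adjusted p = 0.814). In clone 3 alone the change was -0.43 (DESeq2 adjusted p = 0.0419, past the threshold in 5 of 10 settings, and -0.08 with adjusted p = 0.792 after the correction), and in clone 4 it was -0.21 (adjusted p = 0.369).

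CDKN1B (p27, ENSG00000111276, GRCh37 chr12:12838432-12875303, plus strand) inhibits cyclin E-CDK2 and accumulates in quiescent cells. It had 2428 normalized counts in parental cells, 1289 and 1303 in untreated and treated clone 3, and 1898 and 1649 in untreated and treated clone 4. Each EIR library was below the parental one and the clones did not overlap. In clone 3 CDKN1B fell by 0.91 on the log2 scale (SE 0.20, DESeq2 adjusted p = 3.604e-05, past the threshold in all 10 settings tried). In clone 4 the value was -0.45 (DESeq2 adjusted p = 0.0581), and over all 4 libraries -0.66 (SE 0.30, adjusted p = 0.0839). Without untreated clone 4 both passed (adjusted p = 0.0276 and 0.0262). The difference between the clones themselves, 0.44, did not pass (DESeq2 adjusted p = 0.155), but it passed with the GC correction (0.0242), without the treatment covariate (0.0392) and without both the covariate and treated clone 4 (0.0133). GPR19 overlaps CDKN1B on the other strand, and whether counting used the strand is not stated, but GPR19 had only 2 to 22 counts per library.

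The INK4 genes CDKN2A and CDKN2B lie next to each other on chromosome 9. CDKN2A has separate first exons for INK4A, the CDK inhibitor, and for ARF, which stabilises p53, and gene-level counts do not tell these apart. The coding sequences of CDKN2A and CDKN2B are similar, so that estimation could divide reads between the genes, and their counts are uncertain to that extent. The promoter windows of the locus are shown because both of its inhibitors were higher in each EIR library; they span 250 bases before to 50 after an annotated start in RefSeq (GRCh38.p14, minus strand), in lower case with the GC box GGGCGG, or its reverse complement CCGCCC, in capitals. They lie at chr9:21995275-21995574 (the upstream start of CDKN2A, used by ARF), chr9:21974808-21975107 (its downstream start, used by INK4A) and chr9:22009256-22009555 (CDKN2B).
CDKN2A, upstream start: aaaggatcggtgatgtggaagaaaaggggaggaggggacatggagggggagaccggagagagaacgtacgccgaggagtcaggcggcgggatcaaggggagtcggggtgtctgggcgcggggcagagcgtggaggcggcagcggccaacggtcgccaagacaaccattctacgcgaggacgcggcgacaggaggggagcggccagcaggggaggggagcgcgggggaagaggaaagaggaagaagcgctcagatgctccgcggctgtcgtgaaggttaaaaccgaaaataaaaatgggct
CDKN2A, downstream start: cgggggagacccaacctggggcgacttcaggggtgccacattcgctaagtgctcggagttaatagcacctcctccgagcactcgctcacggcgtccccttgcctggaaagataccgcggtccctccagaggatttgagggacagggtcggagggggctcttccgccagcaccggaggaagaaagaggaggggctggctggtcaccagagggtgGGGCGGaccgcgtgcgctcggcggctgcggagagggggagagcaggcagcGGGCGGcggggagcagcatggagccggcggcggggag
CDKN2B: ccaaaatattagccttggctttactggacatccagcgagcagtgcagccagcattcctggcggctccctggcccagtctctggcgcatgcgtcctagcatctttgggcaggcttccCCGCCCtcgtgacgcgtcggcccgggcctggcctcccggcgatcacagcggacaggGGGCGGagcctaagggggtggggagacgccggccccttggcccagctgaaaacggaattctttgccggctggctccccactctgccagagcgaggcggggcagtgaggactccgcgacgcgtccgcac
The windows hold 28, 26 and 25 CpG dinucleotides in that order, where the median of 35116 RefSeq promoter windows of this length is 14. Of all windows, 26.17%, 30.09% and 32.03% hold at least as many. Windows of other members hold 3 to 37, among them genes that did not rise. The GC box, which Sp1-type factors bind, occurred 0 times in the upstream CDKN2A window and 2 times in each of the others, and 44.95% of all windows held it on either strand. Of the 10 genes, 7 had such windows, 12 in all.

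CDKN2B (p15, ENSG00000147883, GRCh37 chr9:22002902-22009304, minus strand), a CDK4 and CDK6 inhibitor induced by TGF-beta, rose in both clones. It had 35.3 normalized counts in parental cells, 177.8 and 161.1 in untreated and treated clone 3, and 171.9 and 167.2 in untreated and treated clone 4. The EIR libraries, between 161.1 and 177.8, lay close together and all far above the parental one. The log2 fold change was 2.27 (SE 0.36, DESeq2 adjusted p = 1.596e-08), it passed in all 13 settings tried, and it was 2.23 after correction for GC content. Clone 4 differed from clone 3 by -0.004 on the log2 scale, with a 95% interval from -0.74 to 0.73.

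CDKN2A (ENSG00000147889, GRCh37 chr9:21967751-21995300, minus strand) was measured at 60.4 normalized counts in parental cells, 1070.2 and 1439.9 in untreated and treated clone 3, and 125.1 and 161.9 in untreated and treated clone 4. All 4 EIR libraries were above the parental one, and those of clone 3 were far above those of clone 4. The rise was 20.8-fold in clone 3 (log2 4.38, SE 0.34, DESeq2 adjusted p = 2.570e-36) and 2.38-fold in clone 4 (log2 1.25, SE 0.35, adjusted p = 0.0018). Clone 3 exceeded clone 4 by 8.75-fold, a log2 difference of -3.13 for clone 4 against clone 3 (SE 0.24, adjusted p = 2.997e-36). With the clones pooled, the comparison with parental cells did not pass (3.53, SE 1.68, DESeq2 adjusted p = 0.108). CDKN2A has a GC content of 58.2%, and with the correction the values were 3.92 pooled (adjusted p = 0.0713), 4.75 in clone 3, 1.76 in clone 4 and -2.99 between the clones.

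The other genes around the locus were less uniform. DMRTA1, the neighbour beyond CDKN2B, rose from 10.1 normalized counts to 159.8 ± 32.1 (SD, n = 4), a log2 fold change of 3.99 (DESeq2 adjusted p = 1.935e-09). MTAP, the metabolic enzyme gene on the CDKN2A side, had 2489 normalized counts against 3075 ± 231 in EIR cells (log2 0.31, adjusted p = 0.212). CDKN2B-AS1, the antisense RNA that overlaps both inhibitors, had 10.1 and 32.9 ± 17.0 (adjusted p = 0.211) and cannot be told apart from them where counting ignores the strand. Within 2 Mb of each inhibitor lay 7 expressed genes, a count that includes the other inhibitor and DMRTA1. Their median log2 ratio to parental was 0.23 in clone 3 and 0.27 in clone 4.

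CDKN2C (p18, ENSG00000123080, GRCh37 chr1:51426417-51440306, plus strand) was measured at 691.9 normalized counts in parental cells, 327.7 and 454.6 in untreated and treated clone 3, and 589.0 and 719.4 in untreated and treated clone 4. Clone 3 was below both parental cells and clone 4. In clone 3 CDKN2C fell by 0.82 on the log2 scale (SE 0.29, DESeq2 adjusted p = 0.0186), a call lost without untreated clone 3 (-0.60, adjusted p = 0.371) or treated clone 3 (-1.08, 0.0544). In clone 4 it had -0.08 (adjusted p = 0.865). The clones differed by 0.75 (SE 0.25, DESeq2 adjusted p = 0.0326). In fits without the treatment covariate this difference passed with all 4 EIR libraries (adjusted p = 0.0121) and was lost when untreated clone 3 (0.681), treated clone 3 (0.0742) or treated clone 4 (0.185) was left out.

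CDKN2D (p19, ENSG00000129355, GRCh37 chr19:10677136-10679735, minus strand) was measured at 126.9 normalized counts in parental cells, 49.99 and 52.4 in untreated and treated clone 3, and 57.0 and 63.5 in untreated and treated clone 4. All EIR libraries were below the parental one, those of clone 3 lowest, by 2.28-fold in the mean. The log2 fold change was -1.19 (SE 0.41, DESeq2 adjusted p = 0.0194). CDKN2D has a GC content of 61.2%, and after the correction the value was -0.66 (adjusted p = 0.315). The call was also lost without any 1 of the 4 EIR libraries (adjusted p from 0.0585 to 0.133). It held in 5 of 13 settings.

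Per length of transcript, CDKN2C made up 81.3% of the INK4 counts in parental cells, whereas CDKN2A led in clone 3. CDKN2A took 7.22% in parental cells, 72.7% in untreated and 73.3% in treated clone 3, and 15.9% and 17.0% in clone 4, where CDKN2C still made up 73.6% and 74.0%. The summed INK4 level was 28.5 CPM per kilobase (counts per kilobase of transcript, scaled to equal library totals) in parental cells, 52.8 and 69.3 in clone 3, and 26.8 and 36.2 in clone 4. CDKN2B, although higher in every EIR library, stayed between 2.08% and 5.55% of the family there. In the CIP/KIP family CDKN1A made up 64.6% in parental cells and 68.0% to 74.1% in EIR cells, and CDKN1C went from 3.43% to at most 0.28%.

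**Figure D3:**
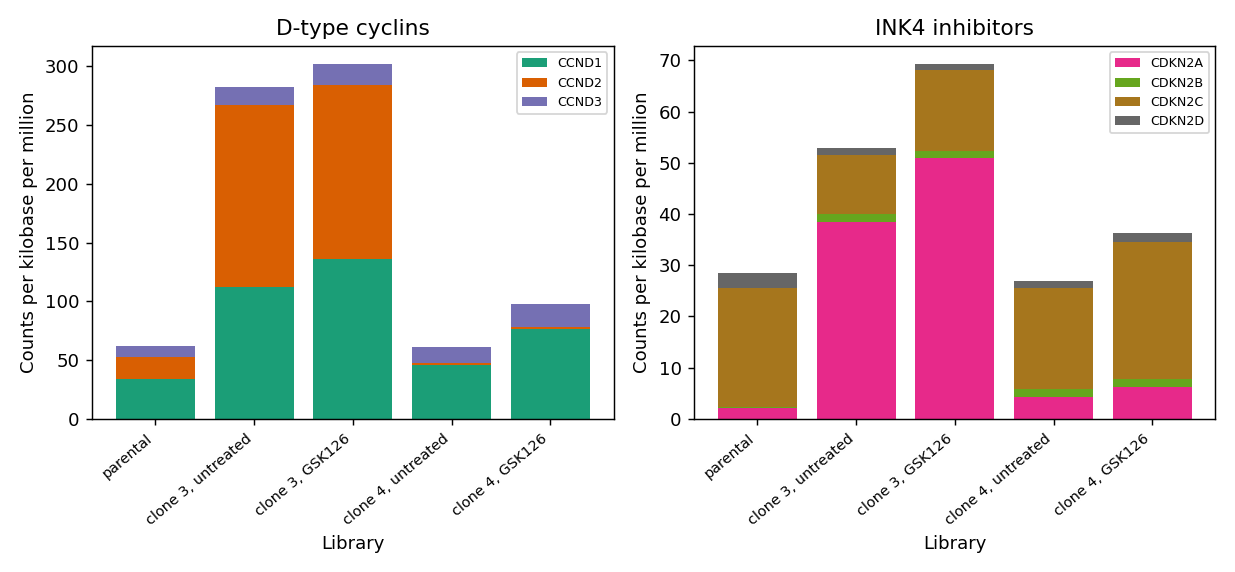
CPM per kilobase of canonical transcript, stacked by gene, for D-type cyclins (left) and INK4 inhibitors (right) in the 5 libraries. The D-type cyclin bars of clone 3 reach 282.5 and 302.4 against 62.0 in parental cells, with CCND2 a thin band in clone 4, and the INK4 bars of clone 3 are mostly CDKN2A.

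Of the D-type cyclins, CCND2 (ENSG00000118971, GRCh37 chr12:4378937-4414519, plus strand) had the widest spread of all 10 genes. It had 3600 normalized counts in parental cells, 28654 and 27813 in untreated and treated clone 3, and 314.3 and 303.6 in untreated and treated clone 4. The clones lay on opposite sides of parental cells, as they did for 9.05% of genes that reached a mean of 100 normalized counts. The log2 fold change was 2.97 in clone 3 (SE 0.16, DESeq2 adjusted p = 2.321e-77) and -3.54 in clone 4 (SE 0.17, adjusted p = 1.854e-96). Clone 3 exceeded clone 4 by 91.4-fold (log2 -6.52 for clone 4 against clone 3, SE 0.17), with a p below the smallest number the software stores. Pooled over the clones, values differed in sign: the fit gave 1.99 (SE 2.65, DESeq2 adjusted p = 0.638) while the mean of the 4 log2 ratios was -0.29. The 17 expressed genes within 2 Mb of CCND2 had a median log2 ratio to parental of 0.10 in clone 3 and -0.06 in clone 4.

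CCND1 (ENSG00000110092, GRCh37 chr11:69455924-69469242, plus strand), a cyclin often amplified in carcinomas, had 4316 normalized counts in parental cells, 13539 and 16711 in untreated and treated clone 3, and 5792 and 8709 in untreated and treated clone 4. All EIR libraries were above the parental one, and the clones did not overlap. CCND1 rose 3.50-fold in clone 3 (log2 1.81, SE 0.23, DESeq2 adjusted p = 7.370e-14) and 1.68-fold in clone 4 (log2 0.75, SE 0.23, adjusted p = 0.0047). The call in clone 4 was lost with total count scaling (DESeq2 adjusted p = 0.176), and its value was 0.43 without treated clone 4 (adjusted p = 0.0483). The clones differed by -1.09 (SE 0.17, adjusted p = 3.450e-09). Over the 4 EIR libraries the change was 1.37 (SE 0.53, adjusted p = 0.0409), and it did not pass without untreated clone 3 (adjusted p = 0.365), treated clone 3 (0.0745) or treated clone 4 (0.158). This call over the 4 libraries held in 8 of 13 settings. LTO1, which overlaps CCND1 on the other strand, had 275 to 412 counts per library.

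CCND3 (ENSG00000112576, GRCh37 chr6:41902672-42018095, minus strand) was measured at 586.2 normalized counts in parental cells, 890.6 and 1065 in untreated and treated clone 3, and 847.4 and 1060.1 in untreated and treated clone 4. The clones overlapped and all 4 libraries were above the parental one. The log2 fold change was 0.72 (SE 0.24, DESeq2 adjusted p = 0.0144). It was 1.21 (adjusted p = 3.426e-06) after correction for GC content, which is 60.0% for this gene, and the call was lost without treated clone 3 (adjusted p = 0.0833). Each clone alone passed (0.74 in clone 3, DESeq2 adjusted p = 0.0126, and 0.70 in clone 4, 0.0171), but clone 3 did not without either of its libraries (0.0923 and 0.337), nor clone 4 without either library of clone 3 or treated clone 4 (up to 0.154).

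Per length of transcript, CCND1 made up 54.7% of D-type cyclin counts in parental cells, CCND2 29.8% and CCND3 15.5%. In untreated clone 3 CCND2 led with 54.8%, and in treated clone 3 with 49.0%. In clone 4 CCND2 made up 2.64% untreated and 1.78% treated, and CCND1 74.6% and 78.3%. The summed level was 62.0 CPM per kilobase in parental cells and 61.1 in untreated clone 4, while treated clone 4 had 97.4 and clone 3 282.5 and 302.4.

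The contrasts by treatment gave fewer calls. In untreated EIR against parental cells, CDKN2B (log2 2.31, DESeq2 adjusted p = 3.757e-04) and CDKN1C (-4.72, adjusted p = 0.0020) passed, 2 of 10 where 13.2% of genes did (6.39% higher and 6.83% lower). CDKN2B was lost there by edgeR (adjusted p = 0.0802) and without untreated clone 3 or 4 (0.125 and 0.131), and CDKN1C without untreated clone 4 (0.0713). In treated EIR against parental cells CDKN2B (2.22, adjusted p = 7.262e-04), CDKN1C (-4.71, adjusted p = 0.0021) and CCND3 (0.86, adjusted p = 0.0190) passed, 3 of 10 where 12.4% did (6.25% higher and 6.13% lower). In this contrast CDKN2B was lost by edgeR (adjusted p = 0.0851) and without any 1 of the 4 EIR libraries (0.0507 to 0.122), as was CCND3 (0.153 by edgeR and 0.220 to 0.269). CDKN1C was lost without treated clone 3 (DESeq2 adjusted p = 0.0523), and CCND1, which did not pass (0.0544), passed in 6 of 11 settings.

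GSK126-treated EIR cells were then compared with untreated ones, which asks whether the drug still moved these genes in resistant clones. None of the 10 genes passed (DESeq2 adjusted p = 1.000 for each), none had an unadjusted p under 0.05, and edgeR called none. Among all 29847 genes tested 1 passed, which is 0.00335%, and 0.392% reached 0.05 without adjustment. With so few calls in the whole table, the lack of calls among the 10 genes cannot show that the drug left them unchanged. When the clone number was added as a replicate block, 4 genes passed in the whole table and again none of the 10. Without the block, differences between the clones enter the spread, and the intervals were wide where the clones differed. That of CCND2 ran from -5.38 to 5.26 on the log2 scale, that of CDKN2A from -2.96 to 3.77, while that of CCND3 ran from -0.14 to 0.70. With the block, the log2 fold change was -0.059 for CCND2 and 0.391 for CDKN2A. Within clones the treated library was higher than the untreated one in both for CCND1 (0.30 in clone 3 and 0.59 in clone 4), CDKN2A (0.43 and 0.37), CDKN2C (0.47 and 0.29) and CCND3 (0.26 and 0.32), as log2 ratios of single libraries with no test.

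**Figure D4:**
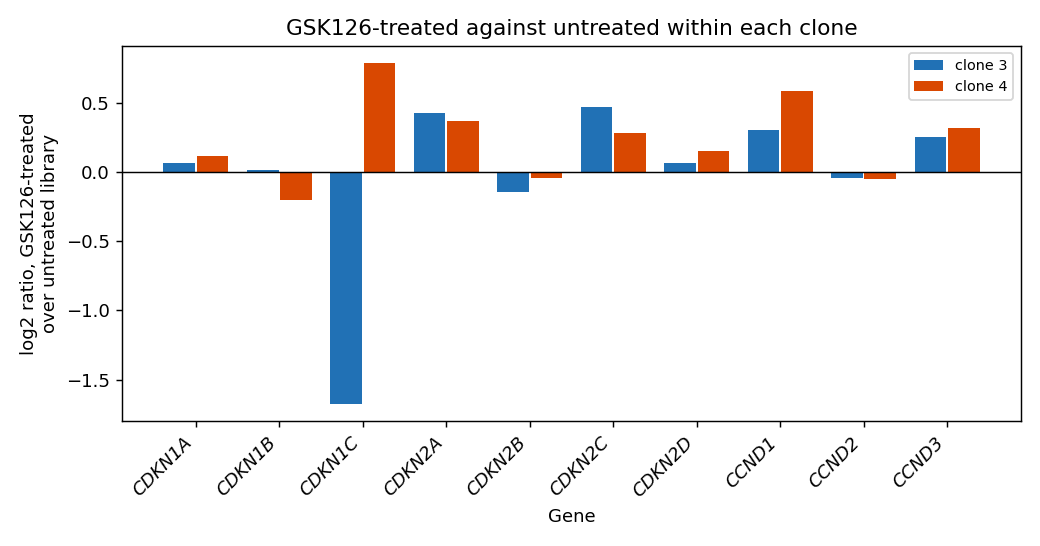
log2 ratio of the GSK126-treated over the untreated library of each gene within clone 3 and clone 4, 1 library each, so the bars have no error. CDKN1C, with 2 to 12 counts per EIR library, has the longest bars (-1.68 and 0.79), while the bars of CCND2 are at -0.04 and -0.05 in the clones that differ 91.4-fold.

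Clone 4 differed from clone 3, in the 4 EIR libraries with treatment as covariate, for 4 of the 10 genes (CDKN2C higher in clone 4, and CDKN2A, CCND1 and CCND2 lower), where 9.81% of 17708 genes passed, 3.3% higher and 6.52% lower. The libraries of the clones did not overlap for 6 of the 8 members that reached a mean of 100 normalized counts, and for 63.1% of all such genes. Genes with profiles over the 5 libraries most like that of CDKN2A were ENSG00000197991 (root mean square log2 difference 0.213), STAT4 (0.235) and MMP7 (0.243). Those most like CCND2 were HS6ST2 (0.282), DPP4 (0.462) and AGPAT3 (0.492). DPP4, for example, had 45.3 normalized counts in parental cells, 240.7 and 277.7 in clone 3, and 1.02 and 2.12 in clone 4.

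The partners and targets of these proteins were described from fixed lists. Of 28 genes of the G1/S machinery, 27 were tested in EIR against parental cells, and 3 rose (CDK6, RBL1 and E2F6) and 3 fell (CDK2, RBL2 and TFDP2), with a median log2 fold change of -0.001. For this and the lists below, 25.5% of all genes tested passed in this comparison (12.4% higher and 13.2% lower) and the median over all genes was 0.003. CDK6, the kinase that D-type cyclins activate, went from 4567 normalized counts to 13869.6 ± 3583 (SD, n = 4) in EIR cells (log2 1.60, DESeq2 adjusted p = 9.715e-05), and was lower in clone 4 than in clone 3 by 0.66 (adjusted p = 5.790e-04). CDK4, its sister kinase, did not move beyond the spread, with 3646 against 3633 ± 179 (log2 -0.005, adjusted p = 0.986). The RB relatives went opposite ways: RBL1 (p107) rose by 0.99 (adjusted p = 2.500e-04) and RBL2 (p130) fell by 0.92 (adjusted p = 2.104e-06). TFDP2, an E2F partner, fell by 0.87 (adjusted p = 0.0069). RB1 (0.52, adjusted p = 0.166), E2F1 (0.09, adjusted p = 0.886) and CCNE1 (-0.65, adjusted p = 0.202) did not pass.

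Of 21 E2F target genes, 2 rose (CDC6 and TOP2A) and 2 fell (CDT1 and MYBL2), with a median of 0.07, so that 4 passed where 25.5% of all genes did. TOP2A, the topoisomerase of mitotic chromosomes, rose by 1.29 (DESeq2 adjusted p = 1.533e-08) and the replication licensing factor CDC6 by 0.76 (adjusted p = 0.0021). CDT1, its partner in licensing, fell by 1.09 (adjusted p = 0.0019) and MYBL2, a transcription factor of the late cycle, by 0.65 (adjusted p = 8.153e-05).

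Of 13 p53 target genes, RRM2B rose (0.80, DESeq2 adjusted p = 0.0091), and SESN2 (-1.56, adjusted p = 3.079e-09), BTG2 (-1.24, adjusted p = 5.281e-04) and XPC (-0.79, adjusted p = 0.0021) fell, with a median of -0.22, 4 of 13 where 25.5% of all genes passed. Of 8 neighbours of CDKN2A, CDKN2B and CDKN1C, 7 were tested, and DMRTA1 and KCNQ1OT1 rose and SLC22A18 fell, 3 of 7, with a median of 0.31. Among the comparisons with parental cells, SLC22A18 passed only in this one. Of 17 regulators of the inhibitor genes, 16 were tested, and KLF4 (-2.04, adjusted p = 2.452e-06) and FOXO3 (-0.93, adjusted p = 4.978e-04), activators of CDKN1A and CDKN1B, fell, 2 of 16, with a median of -0.53 where all genes had 0.003. EZH2 itself had 2746 normalized counts against 2923 ± 389.5 in EIR cells (log2 0.09, adjusted p = 0.825). SUZ12 (0.59) and EED (0.52), PRC2 genes on the same list, did not pass in this comparison either. Both passed as higher in clone 4 against parental cells (1.80-fold and 1.62-fold), but not in clone 3. SUZ12 was also higher in clone 4 than in clone 3. No gene of any of these lists passed between treated and untreated EIR cells.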

How the data were processed

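RNA-seq libraries of total RNA were prepared with a stranded kit. Per the labels and the methods of the study, the authors aligned reads to hg19 with Bowtie2 and deposited estimated counts per gene from RSEM (version 1.2.3 in the submitters' processing notes), rounded to whole numbers (0 values were not whole) and not normalized. Whether counting used the strand is not stated. These counts were used as deposited, and the parental column was identified as the only one whose name has no clone.

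Symbols, coordinates, GC content and length (canonical transcript) came from GENCODE release 44 on GRCh37, which matched 29203 of 30476 identifiers. Fits over the whole table used the Wald test (two-sided) of DESeq2 1.42.0 with its default size factors, run in R 4.3.3, and p adjusted after Benjamini and Hochberg, called under 0.05. The comparisons were EIR against parental cells (no covariate), untreated and treated EIR against parental cells (3 groups), and, in the 4 EIR libraries, treated against untreated cells and clone 4 against clone 3 (treatment as covariate). Log2 ratios of single libraries used a pseudocount of 0.5. Same-numbered EIR libraries come from the same clone, so the numbers pair them (correlation of their deviations 0.862 over 11564 genes), and a fit with the clone number as replicate block was an alternative. Other alternatives were edgeR 4.0.16, TMM and total count scaling, count filters, a correction of normalization factors by loess on GC content, summed clones, and leaving out each EIR library. The procedure was tested on simulated data, which for the comparisons with parental cells and by treatment held no difference between clones. That test therefore does not cover the clone differences of these libraries.

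The members and lists were chosen with earlier results of these data known. Beside the members, the text names up to 4 genes per list with the largest log2 fold change among those called that reached a mean of 100 normalized counts and had 1 direction in all 4 EIR libraries. It also names CDK4, CDK6, RB1, E2F1 and CCNE1, and 3 genes with profiles nearest to those of the inhibitor and the cyclin of widest range. EZH2, SUZ12, EED, MTAP, CDKN2B-AS1, PHLDA2, NAP1L4, EPCAM, NAPSA, KRT8 and the other genes behind a count of calls were named after their values were seen.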

Additional observations from a re-analysis of the deposited data

Results flagged for a closer look

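For 4 of the 10 genes the change from parental cells differed between the clones, by the DESeq2 test of clone 4 against clone 3. The log2 differences were -6.52 for CCND2, -3.13 for CDKN2A, -1.09 for CCND1 and 0.75 for CDKN2C, where 9.81% of the genes tested differed.

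For CDKN1B the treated library lay above the untreated one in clone 3 (log2 ratio 0.015) and below it in clone 4 (-0.20), and for CDKN1C the reverse held (-1.68 in clone 3 and 0.79 in clone 4). These differences were not tested, each rests on 1 library per condition, and CDKN1C had 2 to 12 counts per EIR library.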

How the results depend on the processing

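Every comparison with parental cells rests on 1 parental library, members with few counts (CDKN1C in EIR cells) have little precision, and p-values cover counting error and the spread of these 4 EIR libraries only. CDKN1C and CDKN2B passed in EIR against parental cells under every alternative that gave them a value, as did CDKN2A, CCND1 and CCND2 between the clones. The cause of each change below was not tested, apart from fits with fewer libraries or genes.

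Of the 10 genes, 5 passed in EIR against parental cells, with 2 by edgeR, 3 with the libraries of each clone summed, 2 with treatment as covariate (the same contrast as untreated EIR against parental cells) and 2 to 5 when an EIR library was left out (2 without treated clone 3). In untreated EIR against parental cells 2 passed, with 1 by edgeR, 1 with at least 10 counts required in every library (which drops CDKN1C), 3 with the GC correction and 1 to 2 when a library was left out. In treated EIR against parental cells 3 passed, with 1 by edgeR, 4 with the GC correction or total count scaling and 0 to 2 when a library was left out (0 without treated clone 3).

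CDKN1A turned from lower to higher with the GC correction, to 0.107 in EIR, 0.080 in untreated EIR, 0.134 in treated EIR and 0.270 in clone 4 against parental cells. In clone 4 against clone 3, CDKN2B gave 0.016 with total count scaling, 0.016 and 0.019 with filters of 10 counts in every library and in 2 libraries, and 0.084 with the GC correction, where CCND3 gave 0.111. CDKN2C in clone 4 against parental cells gave 0.008 with total count scaling, and CDKN1C in treated against untreated cells gave 0.108. These values are log2 fold changes, and none passed.

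Leaving out 1 EIR library turned further log2 fold changes. In untreated EIR against parental cells CCND2 ranged from -3.517 to 2.994, in treated EIR from -3.581 to 2.959, and CDKN2C there from -0.597 to 0.043. In clone 4 against clone 3, where these fits also dropped the treatment covariate (CDKN2B -0.006 and CCND3 -0.043 with all libraries), CDKN2B ranged from -0.098 to 0.060 (with 0.011 between) and CCND3 from -0.215 to 0.104 (with 0.068 between), and CDKN2C in clone 4 against parental cells from -0.227 to 0.050. In treated against untreated cells the ranges were -0.039 to 0.185 (CDKN1A), -0.367 to 0.174 (CDKN1B), -1.886 to 0.779 (CDKN1C), -1.919 to 2.684 (CDKN2A), -0.017 to 0.819 (CDKN2C), -0.037 to 0.222 (CDKN2D), -0.181 to 1.134 (CCND1) and -5.613 to 5.490 (CCND2).

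Among all genes, 4157 passed in EIR against parental cells (2014 higher), 1746 by edgeR (650 higher) and 3126 with the GC correction. With summed clones 1914 passed and with the treatment covariate 1998, and 2290 of 4035 were higher with total count scaling. In untreated EIR against parental cells 1998 passed, 432 by edgeR, 1291 with the GC correction and 526 to 1315 when a library was left out, and in treated EIR 2017, 500 by edgeR and 881 to 961. Clone 4 against clone 3 gave 1738, 2541 without the treatment covariate, and 831 to 2800 without the covariate and 1 library. Without 1 library, clone 3 against parental cells 1983 to 5023 against 4925, and clone 4 against parental cells 3339 to 4623 against 5368, and of the 10 genes 6 to 9 passed in clone 3 and 5 to 7 in clone 4. With the replicate block, 0 of the 10 genes passed between treated and untreated cells, as without it, CCND1 had 0.434 and CCND3 0.279, and 4 of all genes passed against 1 without it, 7 with the block and GC correction, and 1 to 25 when a library was left out.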
